A study of Mus musculus with 2 samples.

Results

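Conventional type 1 dendritic cells (cDC1) were taken from the immune cells of the mouse small intestine lamina propria, the connective tissue beneath the gut epithelium, as cells with transcripts of Xcr1 or Clec9a. A cell was counted as cDC1 when it held at least 2 UMIs (unique molecular identifiers, each a counted transcript) of Xcr1 and Clec9a together, at least 5 of H2-Aa, none of Ccr7 or of Cd3d, Cd3e and Cd3g, under 10 of C1qa, C1qb and C1qc, and under 15% of its UMIs on immunoglobulin constant genes and Jchain. This gate held 570 of 25120 kept cells. There were 330 cDC1 among 12526 kept cells of the CD4-Cre library and 240 among 12594 of the F/F library. The values of the gate genes chose these cells and support nothing about them.

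The CD4-Cre library came from mice with floxed alleles of Aster-A and a CD4-Cre transgene (CD4-Cre; Aster-A F/F), and the F/F library from littermates with the floxed alleles alone (Aster-A F/F). All mice were females of 10 to 12 weeks, fasted for 16 h and given olive oil by gavage 2 h before the tissue was taken, so neither group shows the intestine without lipid. From each mouse 100000 living CD45+ cells without EPCAM, Ter119 and CD31 were collected, and 3 mice of a genotype shared 1 library. With 1 pool per genotype nothing was tested: the 95% intervals below cover counting error only, and variation between mice cannot be told apart from a difference between genotypes.

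Dendritic cells take up antigen, carry it to lymph nodes and show it to T cells. The cDC1 lineage depends on the transcription factors IRF8 and BATF3 and is known for cross-presentation, the display of captured antigen on MHC class I to CD8 T cells. XCR1 is its receptor for the chemokine XCL1, and CLEC9A binds actin exposed by dead cells. In the intestine cDC1 carry the integrin CD103, encoded by Itgae, and secrete chemokines that draw T cells. The CD4-Cre transgene uses regulatory sequence of Cd4 and deletes floxed segments in αβ T cells, so cDC1 are not the cells it was built for.

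The 250 bases before the start of 3 genes are shown from RefSeq (GRCm38.p6), because these genes carry the account: Xcr1 and Clec9a define the gate, and Cxcl9 differed most between the libraries among the chemokines with at least 100 UMIs. Each is written 5′ to 3′ along the gene's strand, and capitals mark a match to any of 4 letter patterns searched on both strands.
Xcr1: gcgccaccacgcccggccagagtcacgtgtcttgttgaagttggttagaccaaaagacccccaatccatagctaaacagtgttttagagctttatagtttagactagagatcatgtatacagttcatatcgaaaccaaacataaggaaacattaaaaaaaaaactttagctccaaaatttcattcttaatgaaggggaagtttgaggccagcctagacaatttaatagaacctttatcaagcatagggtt
Clec9a: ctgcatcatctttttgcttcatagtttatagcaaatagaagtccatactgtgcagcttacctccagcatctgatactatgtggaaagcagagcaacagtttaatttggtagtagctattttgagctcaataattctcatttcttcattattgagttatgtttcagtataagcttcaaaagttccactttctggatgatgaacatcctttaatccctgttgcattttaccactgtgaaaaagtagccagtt
Cxcl9: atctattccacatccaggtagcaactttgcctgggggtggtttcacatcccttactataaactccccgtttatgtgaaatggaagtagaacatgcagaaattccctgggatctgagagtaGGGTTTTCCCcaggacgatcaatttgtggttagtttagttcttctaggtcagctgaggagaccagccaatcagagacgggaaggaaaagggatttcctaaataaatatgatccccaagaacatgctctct
They lie at chr9:123862030-123862279 (minus strand, Xcr1), chr6:129408612-129408861 (plus strand, Clec9a) and chr5:92328080-92328329 (minus strand, Cxcl9). The NF-kB type pattern, GGGA then any 4 bases then CC, matched in Cxcl9 as GGGTTTTCCC on the opposite strand, and 17.6% of 32851 RefSeq promoter windows of this length held it. The AP-1 type pattern TGANTCA (6.75% of windows) had no match in these 3 windows. Nor had the interferon-stimulated type, GAAA then any 2 bases then GAAA (2.98%), or the ETS and IRF composite type, GGAA then any 2 bases then GAAA (2.30%). The last 2 patterns can overlap at shared letters. A match of letters does not show that a factor binds.

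The data held 200580083 UMIs in the CD4-Cre library and 222838658 in the F/F library. The median cDC1 had 14371 UMIs and 3264 genes in the CD4-Cre library, against 15775 UMIs and 3396 genes in the F/F library. UMIs were summed over the gated cells, 4738255 in the CD4-Cre and 3811399 in the F/F library, and each gene's level is given as CPM, its UMIs scaled so that all genes of a gate sum to the same total in every library. Across the libraries 47 barcodes were kept in both, and none of these was a cDC1 in both. Immunoglobulin made up a median of 1.45% of UMIs in CD4-Cre cDC1 and 1.46% in F/F cDC1.

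The cells carried the cDC1 markers that the gate did not use. Irf8, the factor that the lineage cannot form without, stood at 1309 CPM in CD4-Cre cDC1 and 1375 CPM in F/F cDC1. It had a UMI in 98.8% of CD4-Cre and 99.6% of F/F cDC1. Macrophages, gated by C1q, held Irf8 at 246 CPM (CD4-Cre) and 238 CPM (F/F). In cDC2, gated by Flt3 with Sirpa, Cd209a, Clec10a or Clec4a4, it stood at 51.5 CPM (CD4-Cre) and 59.7 CPM (F/F). Naaa, an enzyme that breaks down N-acylethanolamines, stood at 486 CPM in CD4-Cre and 526 CPM in F/F cDC1, against 46.3 CPM (CD4-Cre) and 34.1 CPM (F/F) in cDC2. Wdfy4, which cross-presentation needs, stood at 1543 CPM in CD4-Cre and 1495 CPM in F/F cDC1. It was also high in cDC2, at 505 CPM in the CD4-Cre and 597 CPM in the F/F library.

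Batf3 separated cDC1 from lymphocytes but hardly from other myeloid cells. It was under 3 CPM in the B, T and plasma gates of both libraries. Its level was 187 CPM in CD4-Cre and 188 CPM in F/F cDC1, 170 CPM (CD4-Cre) and 111 CPM (F/F) in cDC2, and 107 CPM (CD4-Cre) and 120 CPM (F/F) in macrophages. Some defining markers of other lineages were near 0 in cDC1, and others were not. Sirpa, a receptor of cDC2 and macrophages, stood at 1.90 CPM in CD4-Cre and 2.36 CPM in F/F cDC1, while Mrc1, the mannose receptor of macrophages, stood at 0.633 CPM (CD4-Cre) and 0.525 CPM (F/F). Clec4a4, a lectin receptor of cDC2, was at 0 in both. The macrophage list summed to 129 CPM in CD4-Cre and 134 CPM in F/F cDC1, of which Cd68, a lysosomal protein, made up 109 CPM (CD4-Cre) and 115 CPM (F/F), and 51.5% of CD4-Cre and 56.2% of F/F cDC1 held at least 2 UMIs of the list. The plasma cell list summed to 1716 CPM in CD4-Cre and 1619 CPM in F/F cDC1, with 1554 CPM (CD4-Cre) and 1448 CPM (F/F) from Jchain, the joining chain of antibodies. The summed levels of the cDC2, epithelial, B and T cell lists were 35.9, 69.4, 23.2 and 4.85 CPM in CD4-Cre cDC1, and 26.0, 58.2, 16.0 and 2.36 CPM in F/F cDC1. The part of such RNA in the results was not tested.

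**Figure D1:**
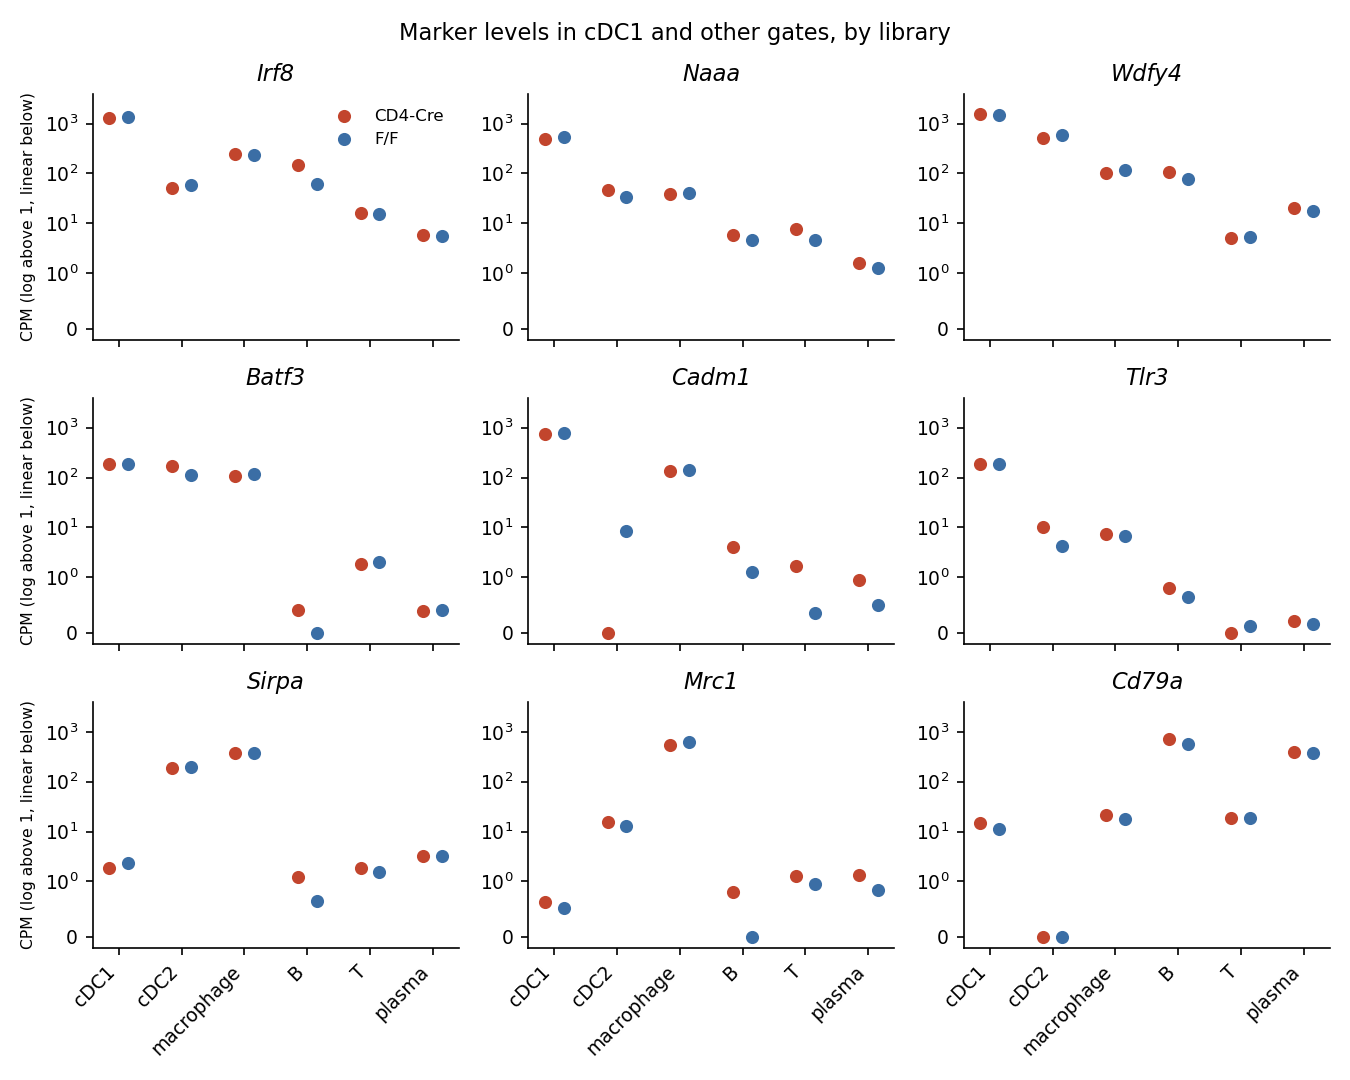
Levels of 9 markers in cDC1 and 5 other gates, as CPM on an axis that is logarithmic above 1 and linear below, with 1 point per library (CD4-Cre left, F/F right). Irf8, Naaa, Cadm1 and Tlr3 are highest in cDC1 in both libraries, and Sirpa, Mrc1 and Cd79a stand in other gates.

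A few gated cells did not carry the other cDC1 markers. In the CD4-Cre library 3 cells with 2, 11 and 17 UMIs of Siglech, a receptor of plasmacytoid dendritic cells, held no Xcr1, Naaa, Batf3 or Cadm1 UMI and 1 UMI of Wdfy4 each. In the F/F library 1 cell with 28 Siglech UMIs held none of Xcr1, Naaa, Wdfy4, Batf3 or Cadm1. A further 3 CD4-Cre cells and 1 F/F cell held 1 Siglech UMI each beside Xcr1, Naaa and Wdfy4. The highest Apoe cell of each library, with 105 UMIs of this lipoprotein gene in the CD4-Cre and 91 in the F/F library, also stood apart. It held 67 Lyz2 and 14 Fcer1g UMIs in the CD4-Cre library, 130 Lyz2 and 12 Fcer1g UMIs in the F/F library, and no Xcr1, Naaa or Cadm1 in either. The plasmacytoid marker list (Siglech, Bst2, Klk1, Cox6a2) summed to 151 CPM in CD4-Cre and 131 CPM in F/F cDC1, and none of its 4 genes was at 0 in either. Leaving out every cell with a Siglech UMI gave 173 genes past 1.5-fold between the libraries, against 169 with them.

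At 2 to 3 UMIs of Xcr1 and Clec9a, 27 CD4-Cre and 18 F/F cells held Irf8 at 1008 CPM (CD4-Cre) and 1051 CPM (F/F). At 1 UMI, outside the gate, 17 CD4-Cre and 10 F/F cells held it at 388 CPM (CD4-Cre) and 1021 CPM (F/F). The Irf8 level outside was thus lower in the CD4-Cre library and close in the F/F library. Fewer cells outside held an Irf8 UMI, 64.7% against 88.9% in the CD4-Cre and 60% against 94.4% in the F/F library. In the F/F library Wdfy4 was lower outside, at 517 against 1275 CPM, and Naaa was close, at 363 against 346 CPM. Other limits removed cells with cDC1 markers: 40 CD4-Cre and 30 F/F cells were left out for a Cd3 UMI, with Irf8 at 1172 CPM (CD4-Cre) and 1178 CPM (F/F). For immunoglobulin, 40 CD4-Cre and 35 F/F cells were left out, with Irf8 at 468 CPM (CD4-Cre) and 678 CPM (F/F). These were deep cells, with a median of 29528 UMIs in the CD4-Cre and 30021 UMIs in the F/F library.

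Beyond the gate genes, cDC1 carried a set of transcripts that were nearly missing from the other kept cells. Those were sorted CD45+ cells, so other cells of the tissue were not compared. Among them 5696 CD4-Cre and 6613 F/F cells were in the plasma gate. Immunoglobulin made up a median of 59.3% (CD4-Cre) and 58.0% (F/F) of UMIs in that gate, which lowers the CPM of its other genes. Tlr3, the endosomal receptor for double-stranded RNA, stood at 188 CPM in CD4-Cre cDC1 and 185 CPM in F/F cDC1, against 1.70 CPM (CD4-Cre) and 1.37 CPM (F/F) in all other kept cells. Tlr11, a sensor of profilin from protozoa, stood at 54.9 CPM in CD4-Cre and 49.9 CPM in F/F cDC1. In other kept cells it stood at 0.544 CPM (CD4-Cre) and 0.453 CPM (F/F). Both sensors were thus far above their level in the other kept cells of each pool. Cadm1, an adhesion molecule that binds CRTAM on activated T cells, stood at 736 CPM in CD4-Cre and 770 CPM in F/F cDC1, against 9.45 CPM (CD4-Cre) and 8.03 CPM (F/F) in other cells.

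Lipid and retinoid genes were among the 20 with the largest ratios over other cells. Cyp26b1, which breaks down retinoic acid, stood at 106 CPM in CD4-Cre and 87.4 CPM in F/F cDC1, against 1.13 CPM (CD4-Cre) and 0.669 CPM (F/F) in other cells. Ffar4, a receptor for long-chain fatty acids, stood at 43.5 CPM in CD4-Cre and 46.2 CPM in F/F cDC1, against 0.423 CPM (CD4-Cre) and 0.304 CPM (F/F) in other cells. Ptgis, prostacyclin synthase, stood at 43.5 CPM (CD4-Cre) and 42.0 CPM (F/F) in cDC1. Mycl, a MYC family factor, stood at 85.5 CPM in CD4-Cre and 70.8 CPM in F/F cDC1, against 1.13 CPM (CD4-Cre) and 0.751 CPM (F/F) in other cells. The largest ratio of the 20, by the smaller of the 2 libraries, belonged to Sept3, a septin, with 46.9 CPM in CD4-Cre and 34.6 CPM in F/F cDC1, against 0.342 CPM (CD4-Cre) and 0.268 CPM (F/F) in other cells. Fam149a, Cacnb2, Gpr141b, Ccser1, Arhgap42, Ifi205, Plce1, Mctp1, the long noncoding RNA Bvht and the predicted or uncharacterised genes Gm11837, Gm43914 and 5730522E02Rik completed the 20. These ratios describe cells that were chosen by their transcripts and are no test of them.

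Against cDC2, of which the gate held only 21 CD4-Cre and 24 F/F cells, the largest excess in cDC1 was Cadm1, with 0 CPM in CD4-Cre cDC2 and 8.53 CPM in F/F cDC2. Plpp1, a phospholipid phosphatase, stood at 131 CPM in CD4-Cre and 142 CPM in F/F cDC1 and had no UMI in cDC2. Csf1r, the receptor for M-CSF, was lower in cDC1, at 1.27 CPM in CD4-Cre and 0.262 CPM in F/F cDC1 against 108 CPM (CD4-Cre) and 59.7 CPM (F/F) in cDC2. Sirpa, Cd209a and Clec4a4 were lower too, but they helped to choose the cDC2. Against macrophages, Serpinb6b, a protease inhibitor, stood at 513 CPM in CD4-Cre and 539 CPM in F/F cDC1, against 0 CPM (CD4-Cre) and 3.33 CPM (F/F) in macrophages. Btla, a checkpoint receptor, stood at 314 CPM in CD4-Cre and 312 CPM in F/F cDC1, against 1.65 CPM (CD4-Cre) and 0.951 CPM (F/F) in macrophages. C5ar1, the receptor for complement C5a, stood at 0.211 CPM in CD4-Cre and 0 CPM in F/F cDC1, against 254 CPM (CD4-Cre) and 239 CPM (F/F) in macrophages.

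The regional program of gut dendritic cells was only in part present in this gate. Itgae stood at 480 CPM in CD4-Cre and 427 CPM in F/F cDC1, and Ccr9, the receptor that leads cells to the small intestine, at 145 CPM (CD4-Cre) and 146 CPM (F/F). Aldh1a2, which makes retinoic acid, stood at 46.0 CPM in CD4-Cre and 39.9 CPM in F/F cDC1. In the gate for Ccr7 dendritic cells, which have matured to migrate, it stood at 470 CPM over 11 CD4-Cre cells and 1112 CPM over 3 F/F cells. Of these, 4 CD4-Cre cells and 1 F/F cell held at least 2 UMIs of Xcr1 and Clec9a. The lineage of the other cells in that gate was not determined. Itgb8, the integrin chain that activates TGF-β, stood at 0.211 CPM in CD4-Cre and 0 CPM in F/F cDC1, against 287 CPM (CD4-Cre) and 411 CPM (F/F) in those Ccr7 cells. Epcam had a UMI in 133 CD4-Cre and 89 F/F cDC1, at 69.2 CPM (CD4-Cre) and 53.0 CPM (F/F), although the sort removed cells with EPCAM protein. Macrophages held Epcam at 2.48 CPM (CD4-Cre) and 8.08 CPM (F/F) and other kept cells at 90.6 CPM (CD4-Cre) and 83.1 CPM (F/F). Free RNA was not removed, so its part in these values was not tested.

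The share of cDC1 differed between the libraries over one denominator and not over another. They made up 2.63% (2.36 to 2.93, exact binomial interval) of kept CD4-Cre cells and 1.91% (1.67 to 2.16) of kept F/F cells, a ratio of 1.38 (1.17 to 1.64). Over kept cells with under 15% immunoglobulin UMIs they made up 7.30% (6.56 to 8.10) in the CD4-Cre and 7.21% (6.35 to 8.14) in the F/F library, a ratio of 1.01 (0.855 to 1.20). The plasma gate held 5696 CD4-Cre and 6613 F/F cells, so the denominators differ in how many plasma cells they hold. Over cells with at least 5 H2-Aa UMIs, the antigen-presenting fraction, cDC1 made up 25.2% (22.9 to 27.7) in the CD4-Cre and 17.6% (15.6 to 19.7) in the F/F library. Macrophages, 214 in the CD4-Cre and 364 in the F/F library, are part of that denominator. A share of sorted cells does not give a number per intestine.

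A like share of cDC1 was cycling in both libraries. Cells with at least 3 UMIs over 10 mitosis genes (Mki67, Top2a, Cdk1, Ccnb1, Ccnb2, Birc5, Ube2c, Tpx2, Cenpf and Hmmr) numbered 66 of 330 CD4-Cre cDC1, 20% (15.8 to 24.7), and 48 of 240 F/F cDC1, 20% (15.1 to 25.6). The ratio was 1.0 (0.679 to 1.48), so at this number of cells a difference within that interval was not detectable. Among macrophages the share was 3.74% (1.63 to 7.23) in the CD4-Cre and 3.57% (1.92 to 6.03) in the F/F library. T cells stood at 3.90% in the CD4-Cre and 5.43% in the F/F library with fewer UMIs per cell, a median of 3607 (CD4-Cre) and 3859 (F/F) against the cDC1 medians above. After each cDC1 was thinned to 2000 UMIs, with no cell shallower than that, the shares were 5.76% (3.50 to 8.85) in the CD4-Cre and 5.42% (2.92 to 9.08) in the F/F library.

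**Figure D2:**
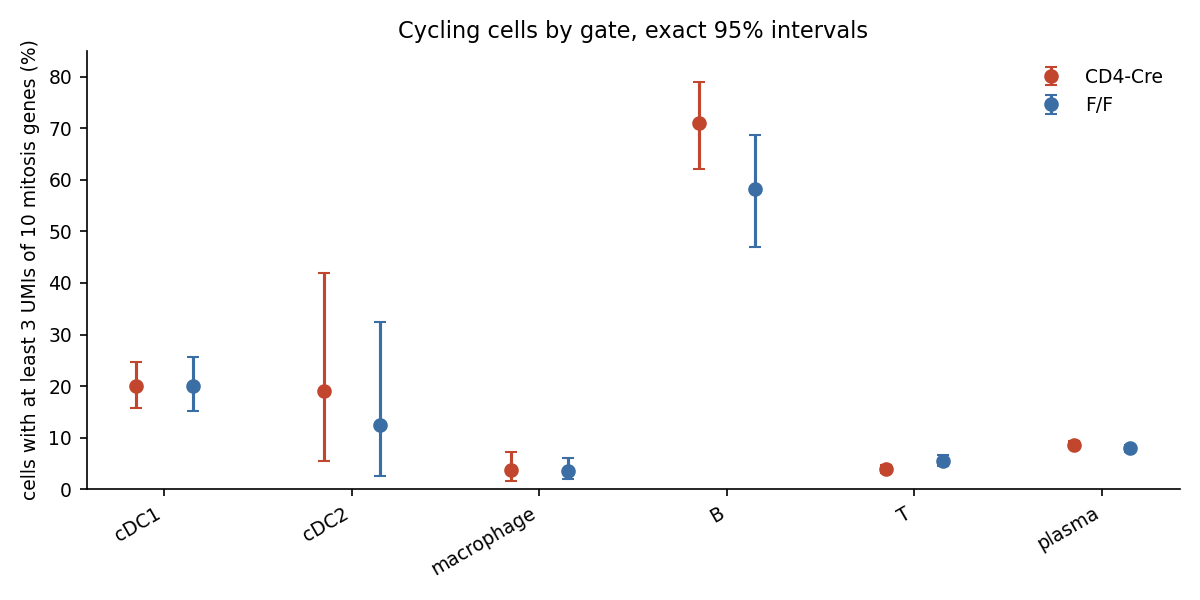
Share of cells with at least 3 UMIs over 10 mitosis genes in each gate, with exact 95% binomial intervals that cover counting error only (CD4-Cre left, F/F right, depth not matched). Both cDC1 points lie at 20%, above the macrophage, T and plasma gates, below the B gate and within the wide intervals of cDC2.

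Within the cycling cells, chosen by those 10 genes, other genes of the cell cycle were higher in both libraries. Pclaf, a partner of the replication clamp PCNA, stood at 159 CPM in cycling and 2.75 CPM in other CD4-Cre cDC1, and at 151 and 2.74 CPM in F/F cDC1. Stmn1, which destabilises microtubules, stood at 436 CPM in cycling and 10.7 CPM in other CD4-Cre cDC1, and at 309.5 and 16.8 CPM in F/F cDC1. Crtam, an adhesion receptor picked among the genes lowest in cycling cells, stood there at 9.08 CPM against 22.3 CPM in other CD4-Cre cDC1. In F/F cDC1 it stood at 1.13 CPM against 20.9 CPM. Few cycling cells held a Crtam UMI, 10.6% in the CD4-Cre and 2.08% in the F/F library. Itgae was lower in cycling cells as well, at 308 CPM against 532 CPM in other CD4-Cre cDC1, a ratio of 0.579 (0.514 to 0.650). In F/F cDC1 Itgae stood at 332 CPM against 456 CPM, a ratio of 0.728 (0.640 to 0.827). Irf8 had ratios of 0.924 (0.869 to 0.981) in CD4-Cre and 0.977 (0.915 to 1.04) in F/F cDC1. Over the list of 18 replication genes, 17 were measured, and none differed by 1.5-fold between the libraries.

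Gramd1a, the floxed gene, encodes Aster-A, an endoplasmic reticulum protein that moves cholesterol from the plasma membrane (ENSMUSG00000001248, chromosome 7, 31130127 to 31155896, minus strand, GRCm38). In cDC1 it was a low transcript in both libraries, with 59 UMIs or 12.5 CPM in the CD4-Cre and 31 UMIs or 8.13 CPM in the F/F library. The ratio was 1.53 (0.975 to 2.45), and its interval reached 1. In free RNA Gramd1a stood at 48.5 CPM (CD4-Cre) and 64.8 CPM (F/F), above its cDC1 level in the same library. The part of free RNA in the Gramd1a UMIs of cDC1 was not tested. In the T gate, where the transgene acts, Gramd1a stood at 64.1 CPM in the CD4-Cre and 77.1 CPM in the F/F library. Which exons are floxed was not stated in the labels, and a 3′ tag outside the deleted part checks nothing. Gramd1b, which encodes Aster-B, stood at 28.5 CPM in CD4-Cre and 32.5 CPM in F/F cDC1, a ratio of 0.876 (0.681 to 1.13). Gramd1b was also higher in free RNA, at 64.6 CPM (CD4-Cre) and 68.5 CPM (F/F). After thinning to 2000 UMIs a cell the few UMIs left gave ratios of 5.45 (1.27 to 49.2) for Gramd1a and 1.58 for Gramd1b. Gramd1c, which encodes Aster-C, had 21 UMIs in CD4-Cre and 10 UMIs in F/F cDC1. Cd4 itself had 11 UMIs in CD4-Cre and 5 in F/F cDC1, or 2.32 CPM (CD4-Cre) and 1.31 CPM (F/F), against 488 CPM (CD4-Cre) and 115 CPM (F/F) in T cells. Cd8a, which mouse cDC1 of lymphoid organs are known to carry, had a UMI in 41.2% of CD4-Cre and 39.6% of F/F cDC1, with 48.5 CPM (CD4-Cre) and 40.1 CPM (F/F).

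Of the 5 marker genes of cDC1, the 3 that the gate did not use were at close levels in both libraries. Irf8 had a ratio of CD4-Cre over F/F of 0.952 (0.917 to 0.988), Naaa of 0.925 (0.871 to 0.983) and Wdfy4 of 1.03 (0.997 to 1.07). Per cell, the median number of Irf8 UMIs was 18 in CD4-Cre and 20 in F/F cDC1, and the quartiles, 12 to 25 in CD4-Cre and 14 to 28 in F/F cDC1, overlapped. Xcr1 (chromosome 9, 123852315 to 123862029) stood at 341 CPM in CD4-Cre and 347 CPM in F/F cDC1. Clec9a (chromosome 6, 129408862 to 129424763) stood at 496 CPM (CD4-Cre) and 423 CPM (F/F). The ratios were 0.984 (0.914 to 1.06) for Xcr1 and 1.17 (1.10 to 1.25) for Clec9a, both of them gate genes, whose levels the choice of cells partly set.

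Most genes of cDC1 were near 1 between the libraries. Of 6477 genes with at least 100 UMIs in cDC1 over both libraries, 83 (1.28%) were at least 1.5-fold higher in CD4-Cre and 86 (1.33%) at least 1.5-fold lower, 169 (2.61%) in all. The median log2 ratio was 0.03. The larger set of 10125 genes with at least 20 UMIs, used for gene lists with 0.5 added to each count, had 4.75% at least 1.5-fold higher, 5.58% at least 1.5-fold lower, 53.4% higher by any amount and 46.6% lower by any amount. Its median log2 ratio was 0.02. Genes named below also had to reach 20 CPM, a UMI in 5% of cells, an interval that did not reach 1, and free RNA that differed under 4-fold between the libraries. This left 49 higher and 55 lower genes, of which the 12 largest each way were followed.

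**Figure D3:**
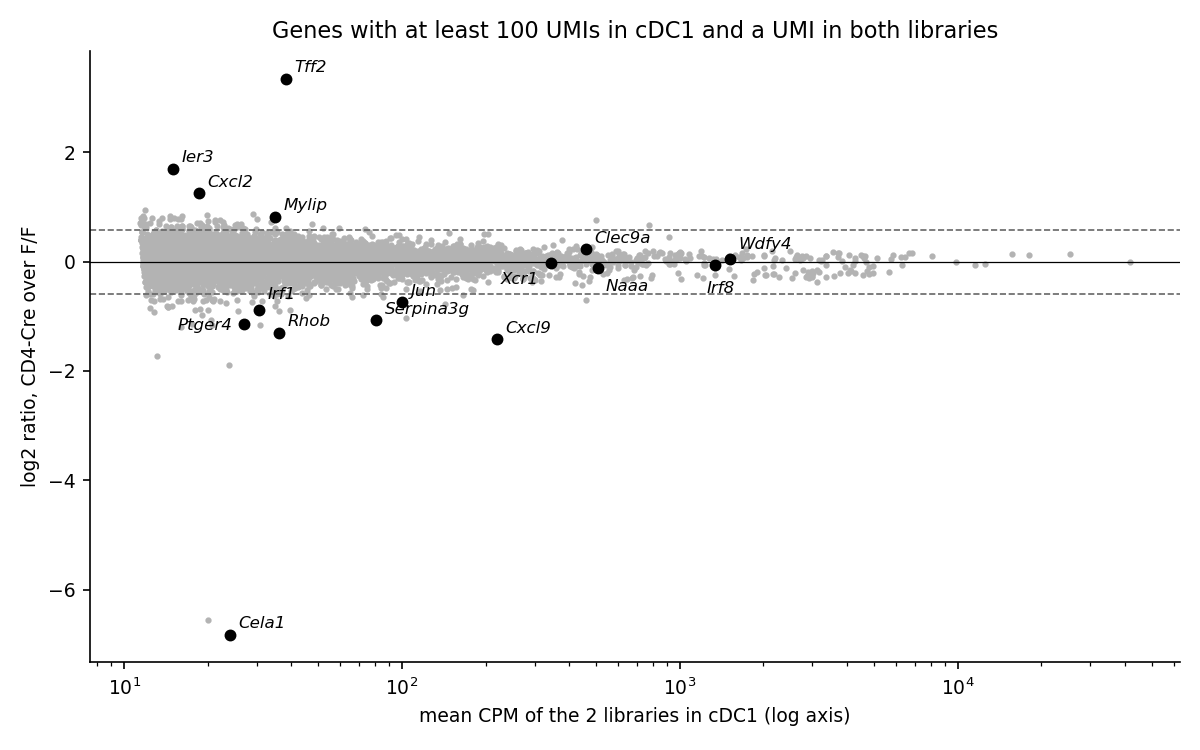
Log2 ratio of CD4-Cre over F/F against mean CPM (log axis) for genes with at least 100 UMIs in cDC1 and a UMI in both libraries, with dashed lines at 1.5-fold. The marker genes Irf8, Naaa, Wdfy4, Xcr1 and Clec9a lie near 0, while Cxcl9 is far below the lines at a high level, and Tff2 and Cela1, genes of stomach and pancreas, are the extremes.

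The extremes of the comparison were transcripts of digestive glands. Ctrb1, a pancreatic chymotrypsinogen, had 0 UMIs in CD4-Cre and 379 UMIs in F/F cDC1, where 34.6% of cells held one. Over 10 pancreatic genes the sum was 0.844 CPM in CD4-Cre and 532 CPM in F/F cDC1, and barcodes of 10 to 100 UMIs, which hold free RNA, had the same genes at 203 CPM (CD4-Cre) and 1341 CPM (F/F). Tff2, a gastric trefoil peptide, stood at 69.4 CPM in CD4-Cre and 6.82 CPM in F/F cDC1, and at 168 CPM (CD4-Cre) and 16.6 CPM (F/F) in macrophages. Cela1, a pancreatic elastase that passed the rule on free RNA, is of the same kind, with 2 UMIs in CD4-Cre and 182 UMIs in F/F cDC1.

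Cxcl9, the chemokine that draws T cells bearing CXCR3, was the most abundant of the 12 named lower genes (ENSMUSG00000029417, chromosome 5, 92321347 to 92328079, minus strand). It had 565 UMIs or 119 CPM in CD4-Cre cDC1 and 1219 UMIs or 320 CPM in F/F cDC1, a ratio of 0.373 (0.337 to 0.412). In macrophages the ratio lay on the other side of 1, with 225 CPM in the CD4-Cre and 109 CPM in the F/F library, or 2.06 (1.72 to 2.47). The share of cDC1 with a Cxcl9 UMI was 26.7% (21.97 to 31.8) in the CD4-Cre and 32.9% (27.0 to 39.3) in the F/F library, and thinned to 2000 UMIs it was 11.5% (8.28 to 15.5) and 12.1% (8.24 to 16.9). The shares of positive cells thus overlapped in their intervals. The interval of the level ratio in cDC1 did not reach 1, but it treats UMIs of 1 cell as independent and is too narrow here. The macrophage interval treats UMIs the same way.

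A few cells held a large share of the transcript. The 5 CD4-Cre cells with most Cxcl9 held 243 of 565 UMIs, or 43.0%, and the 5 F/F cells with most held 684 of 1219, or 56.1%. The highest cell had 60 UMIs in the CD4-Cre and 224 UMIs in the F/F library, and at least 30 UMIs were found in 5 CD4-Cre and 10 F/F cells. The median positive cell held 2 UMIs in both libraries. Once the 5 highest cells were set aside, the levels were 69.3 CPM in CD4-Cre and 143 CPM in F/F cDC1, a ratio of 0.484 (0.420 to 0.556).

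**Figure D4:**
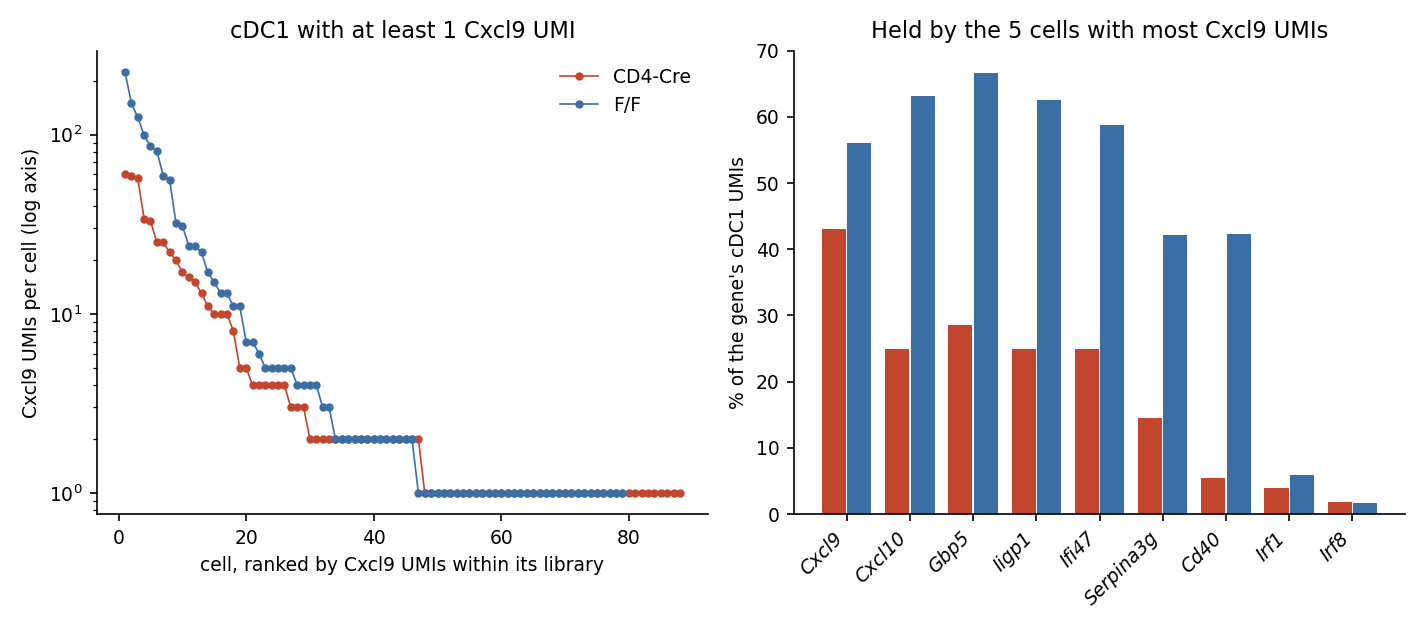
Left, Cxcl9 UMIs per cell (log axis) in cDC1 with at least 1, ranked within each library. Right, the percentage of each gene's cDC1 UMIs that the 5 cells with most Cxcl9 held (CD4-Cre left, F/F right): over 55% for Cxcl9, Cxcl10, Gbp5, Iigp1 and Ifi47 in the F/F library, and 1.74% for Irf8.

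Those 5 F/F cells also held other interferon-γ type genes. They held 24 of the 38 F/F UMIs of Cxcl10, another ligand of CXCR3, while the CD4-Cre library had 4 UMIs of it in all. They held 14 of 21 UMIs of Gbp5, a guanylate-binding protein, 10 of 16 of Iigp1, an immunity-related GTPase, 22 of 52 of Cd40, the receptor for T cell help, and 176 of 417 of Serpina3g, a serine protease inhibitor. The 5 CD4-Cre cells held 2 of 7 Gbp5 UMIs, 1 of 4 Iigp1 UMIs, 2 of 37 Cd40 UMIs and 36 of 247 Serpina3g UMIs. Their cDC1 markers were present: summed over the 5 cells, Irf8 stood at 1270 CPM in the CD4-Cre and 1174 CPM in the F/F library, and Xcr1 at 307 CPM (CD4-Cre) and 426 CPM (F/F).

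Cells with at least 1 Cxcl9 UMI, a split added after its values were seen, shared a pattern in both libraries. Ccl22, a ligand of CCR4, stood at 43.1 CPM in Cxcl9-positive and 9.07 CPM in other CD4-Cre cDC1, and at 43.5 and 3.60 CPM in F/F cDC1. Ccl17, the other ligand of CCR4, stood at 198 CPM in positive and 62.6 CPM in other CD4-Cre cDC1, and at 257 and 56.8 CPM in F/F cDC1. Relb, the NF-kB subunit of dendritic cell maturation, stood at 49.2 CPM in positive and 21.9 CPM in other CD4-Cre cDC1, and at 38.9 and 20.8 CPM in F/F cDC1. The median positive cell had 14890 UMIs in the CD4-Cre and 17126 UMIs in the F/F library, against 14334.5 UMIs (CD4-Cre) and 15268 UMIs (F/F) in other cells.

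The interferon response list was lower in CD4-Cre cDC1, with the difference smaller without these few cells and among members with more UMIs. Of 22 measured genes, of 30 listed, 1 was at least 1.5-fold higher, 11 were at least 1.5-fold lower and 16 were lower by any amount. The median log2 ratio of the list was -0.59, against 0.02 over all genes measured this way. Of all those genes, 5.58% were at least 1.5-fold lower and 46.6% lower by any amount. Without the 5 cells of each library with most Cxcl9, 4 of 18 list members were at least 1.5-fold lower and their median was -0.20. Over the 10 members with at least 100 UMIs, 1 was past the limit and the median was -0.04. Irf1, a factor that interferon-γ induces, was the one of these past 1.5-fold, with 21.5 CPM in CD4-Cre and 39.6 CPM in F/F cDC1, a ratio of 0.543 (0.418 to 0.703). The same list had median log2 ratios of -0.52 in the B gate, 0.15 in macrophages, 0.05 in T cells and -0.13 in plasma cells.

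The list of chemokines and cytokines held genes on both sides. Of its 16 measured genes, 3 were at least 1.5-fold higher and 2 at least 1.5-fold lower, the lower ones being Cxcl9 and Cxcl10. Over all genes with at least 20 UMIs, 4.75% were that much higher and 5.58% that much lower. The median log2 ratio of the list was 0.03. Cxcl2, a neutrophil attractant, stood at 26.2 CPM in CD4-Cre and 11.02 CPM in F/F cDC1, a ratio of 2.37 (1.66 to 3.46). Only 12.4% of CD4-Cre and 8.33% of F/F cDC1 held it, and the ratio was 1.05 once cells with 2 UMIs of other lineages were left out, which keeps 157 CD4-Cre and 98 F/F cells. Il12b, the shared subunit of IL-12 and IL-23, had 63 UMIs in CD4-Cre and 29 UMIs in F/F cDC1, a ratio of 1.75 (1.11 to 2.81). Ccl5, a chemokine that draws T cells, had 89 UMIs in CD4-Cre and 40 UMIs in F/F cDC1, a ratio of 1.79 (1.22 to 2.67). Tnf had 69 UMIs in CD4-Cre and 82 in F/F cDC1.

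Ligands for T cells lay on both sides of 1 as well. In the list of costimulation and checkpoint ligands 2 of 14 measured genes were at least 1.5-fold higher and 2 at least 1.5-fold lower. The median log2 ratio was 0.03. These limits were passed by 4.75% (higher) and 5.58% (lower) of all genes with at least 20 UMIs. Cd274, which encodes the checkpoint ligand PD-L1, stood at 63.1 CPM in CD4-Cre and 41.2 CPM in F/F cDC1, a ratio of 1.53 (1.26 to 1.87). Cd80, a ligand of CD28 and CTLA-4, stood at 46.4 CPM in CD4-Cre and 30.2 CPM in F/F cDC1, a ratio of 1.54 (1.22 to 1.95). Cd86, its more abundant relative, stood at 362 CPM (CD4-Cre) and 354 CPM (F/F). Cd40 had a ratio of 0.572 (0.365 to 0.889) from 37 CD4-Cre and 52 F/F UMIs, 22 of the F/F UMIs in the 5 cells above. Havcr2, which encodes TIM-3, stood at 329 CPM (CD4-Cre) and 321 CPM (F/F). In the list of maturation genes 3 of 17 measured were at least 1.5-fold higher (Cd80, Il12b and Ccl5) and 1 was lower (Cd40).

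The machinery of antigen presentation was at like levels in both libraries. For MHC class I and cross-presentation, 24 of 24 genes were measured, none was past 1.5-fold in either direction, and the median log2 ratio was -0.0015. B2m, the light chain of MHC class I, stood at 936 CPM (CD4-Cre) and 887 CPM (F/F). Tap1, a peptide transporter subunit, stood at 138 CPM (CD4-Cre) and 143 CPM (F/F), and Psmb8, an immunoproteasome subunit, at 939 CPM (CD4-Cre) and 931 CPM (F/F). Tapbp, which encodes tapasin, the peptide editor of MHC class I, stood at 145 CPM (CD4-Cre) and 109 CPM (F/F), a ratio of 1.32 (1.17 to 1.498). For MHC class II, 12 of 14 measured genes were higher by any amount, against 53.4% of all genes with at least 20 UMIs. None of the 14 was past 1.5-fold, and their median log2 ratio was 0.11. Cd74, the invariant chain, stood at 16443 CPM in CD4-Cre and 15015 CPM in F/F cDC1, and Ifi30, a thiol reductase of antigen processing, at 385 CPM (CD4-Cre) and 313 CPM (F/F). The class II median was also above 0 in macrophages (0.20), B cells (0.31), T cells (0.11) and plasma cells (0.17).

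Transcription factors of the lineage were close in both libraries too. Of 21 measured, none was past 1.5-fold, and the median log2 ratio was 0.04. Id2, which cDC1 need to form, stood at 134 CPM in CD4-Cre and 139 CPM in F/F cDC1, and Cbfa2t3, a corepressor of the Irf8 program, at 222 CPM (CD4-Cre) and 215 CPM (F/F). Zbtb46, a factor of conventional dendritic cells, stood at 32.1 CPM (CD4-Cre) and 22.8 CPM (F/F), a ratio of 1.41 (1.07 to 1.85). Klf4 stood at 20.7 CPM in CD4-Cre and 29.6 CPM in F/F cDC1, a ratio of 0.698 (0.527 to 0.923). In the list of 24 identity genes, Cxcl9 alone was past 1.5-fold.

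Few sensing and homing genes were past 1.5-fold. Of 14 measured sensing genes, 1 was at least 1.5-fold higher and 1 lower, with a median of -0.05 (log2). For all genes with at least 20 UMIs the shares were 4.75% higher and 5.58% lower. Tlr3 and Tlr11 had ratios of 1.01 (0.918 to 1.12) and 1.10 (0.909 to 1.33). Of 12 measured chemokine and lipid guidance receptors, 1 was past 1.5-fold: Ptger4, a receptor for prostaglandin E2, at 16.9 CPM in CD4-Cre and 37.3 CPM in F/F cDC1, a ratio of 0.453 (0.340 to 0.600). In other kept cells its ratio was 0.919. Retinoid metabolism and TGF-β signals shape gut dendritic cells. Of 14 measured genes of the retinoid and TGF-β program, 13 were higher by any amount, 2 at least 1.5-fold higher and 1 lower, with a median log2 ratio of 0.27, which ran from 0.16 to 0.29 over 18 alternatives. Of all genes, 53.4% were higher by any amount. The list was also above 0 in T cells (0.18), B cells (0.52), macrophages (0.04) and plasma cells (0.03). Tgfbi, which TGF-β induces, stood at 47.9 CPM in CD4-Cre and 33.6 CPM in F/F cDC1, a ratio of 1.43 (1.14 to 1.79), and Tgfbr1, a receptor chain, at 45.6 CPM (CD4-Cre) and 35.2 CPM (F/F), a ratio of 1.30 (1.04 to 1.62). The 3 past the limit, Rdh10, Dhrs3 and Stra6l, had at most 38 UMIs in a library and intervals that reached 1.

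**Figure D5:**
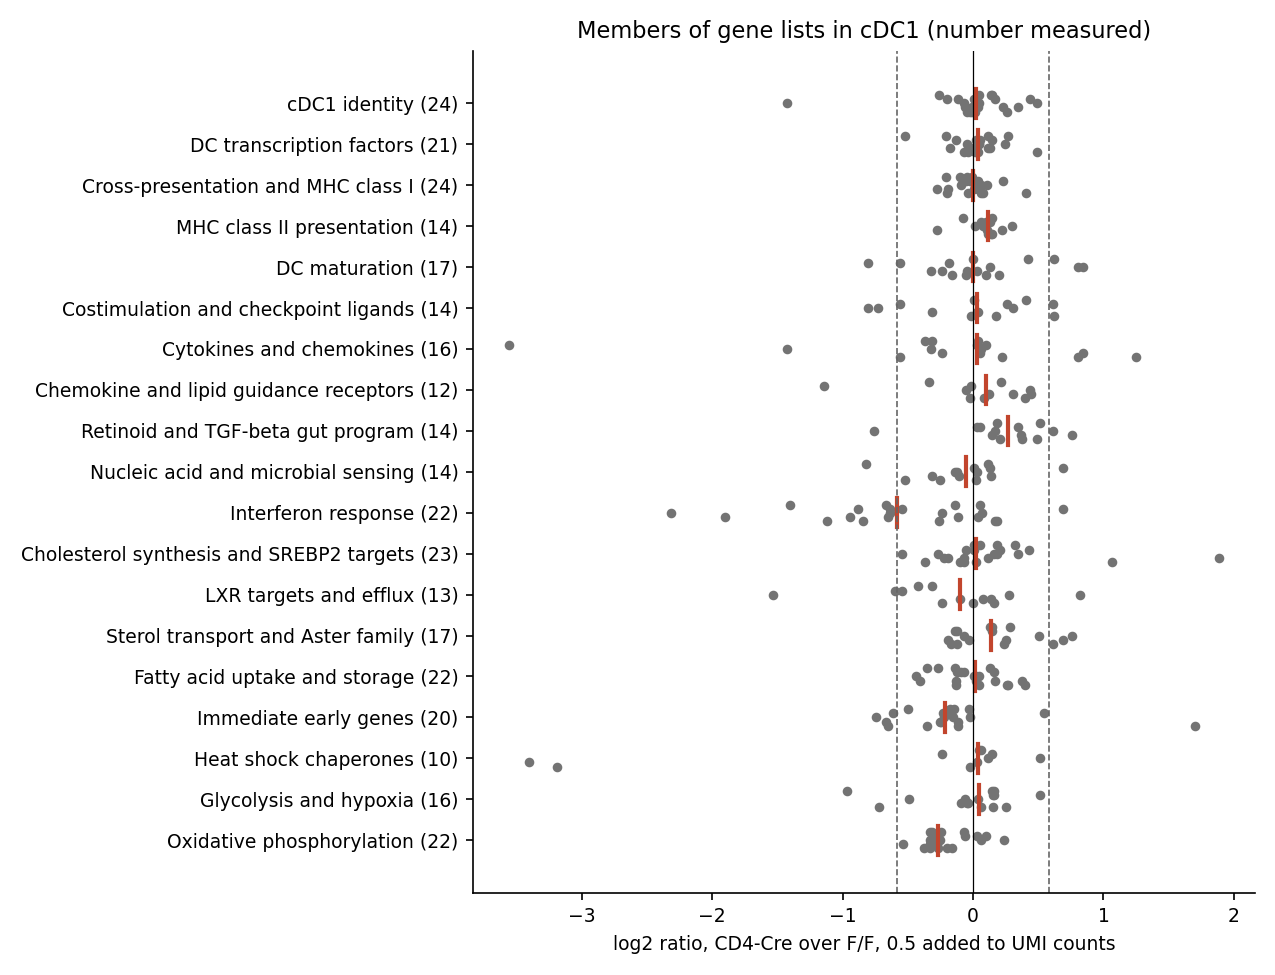
Log2 ratio of CD4-Cre over F/F for each measured member (points, 0.5 added to counts) of 19 gene lists in cDC1, with the list median as a red bar, dashed lines at 1.5-fold and the number measured in brackets. The interferon response median is -0.59, that of oxidative phosphorylation -0.27 with no member past 1.5-fold, and most other medians lie near 0.

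Most genes of cholesterol and fatty acid handling were near a ratio of 1 in cDC1. Of 23 measured genes of cholesterol synthesis and SREBP2 targets, 2 were at least 1.5-fold higher and none lower, with a median log2 ratio of 0.02. At 20 or more UMIs, 4.75% of all genes were that much higher and 5.58% that much lower. Dhcr7, an enzyme of the last steps of the pathway, was 1 of the 2 higher genes. It had 26 UMIs in CD4-Cre and 10 UMIs in F/F cDC1, a ratio of 2.09 (0.976 to 4.86). In sterol transport 3 of 17 were at least 1.5-fold higher, none lower, with a median of 0.14 (log2). Gramd1a and Gramd1c were 2 of the 3, and Osbpl1a had 36 UMIs in CD4-Cre and 18 UMIs in F/F cDC1.

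LXR targets gave 1 gene at least 1.5-fold higher and 2 lower of 13 measured, with a median log2 ratio of -0.10. Among all genes with at least 20 UMIs the shares were 4.75% higher and 5.58% lower. Mylip, a ubiquitin ligase, stood at 44.5 CPM in CD4-Cre and 25.2 CPM in F/F cDC1, a ratio of 1.77 (1.38 to 2.27). It was above 1 in other kept cells (1.52) and macrophages (1.35), but at 0.944 in the cDC1 left when cells with 2 UMIs of other lineages were removed. Fasn, fatty acid synthase, had 51 UMIs in CD4-Cre and 62 UMIs in F/F cDC1, and Fads2, a desaturase, 6 UMIs in CD4-Cre and 14 UMIs in F/F cDC1. Abca1, the cholesterol exporter, was under 20 UMIs over both libraries. None of 22 measured genes of fatty acid uptake and storage was past 1.5-fold. Plin2, a lipid droplet coat protein that fatty acids induce, stood at 191 CPM in CD4-Cre and 190 CPM in F/F cDC1, and Cd36, a fatty acid receptor, at 159 CPM (CD4-Cre) and 133 CPM (F/F), a ratio of 1.20 (1.07 to 1.34). In macrophages Plin2 stood at 404 CPM (CD4-Cre) and 417 CPM (F/F).

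Immediate early genes were mostly lower in CD4-Cre cDC1. Of 20 measured, 18 were lower by any amount, against 46.6% of all genes with at least 20 UMIs. Of the 20, 4 were at least 1.5-fold lower (5.58% of all genes) and 1 at least 1.5-fold higher (4.75%). The median log2 ratio of the list was -0.21. Jun, an AP-1 subunit, stood at 74.9 CPM in CD4-Cre and 125 CPM in F/F cDC1, a ratio of 0.597 (0.519 to 0.687). Thinned to 2000 UMIs, 8.48% (5.71 to 12.0) of CD4-Cre and 18.8% (14.0 to 24.3) of F/F cDC1 held a Jun UMI. Egr1, Atf3 and Klf2 were the other 3, at 51.5, 57.2 and 34.8 CPM in CD4-Cre cDC1, against 80.8, 87.4 and 55.4 CPM in F/F cDC1. These genes are also known to be induced while tissue is taken apart, and the part of handling in these values was not tested. The list was below 0 in the B gate (-0.28), T cells (-0.05) and plasma cells (-0.18), and above 0 in macrophages (0.06).

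Ier3, which counters cell death, lay on the other side of 1 and had the largest ratio of the 12 named higher genes (chromosome 17, 35821684 to 35822923, plus strand). It had 109 UMIs or 23.0 CPM in CD4-Cre and 27 UMIs or 7.08 CPM in F/F cDC1, a ratio of 3.25 (2.11 to 5.15). A UMI was seen in 13.9% of CD4-Cre and 6.67% of F/F cDC1. Without the 5 cells highest for it the ratio was 4.13, and in macrophages it was 1.59 (1.36 to 1.87). Nr4a3, an orphan nuclear receptor, was the other member above 1, at 89.9 CPM in CD4-Cre and 61.7 CPM in F/F cDC1.

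The stress-inducible chaperones Hspa1a and Hspa1b were lower in CD4-Cre cDC1, with 9 and 4 UMIs, against 66 and 34 UMIs in F/F cDC1. The other 8 measured chaperones were within 1.5-fold, among them Hspa8, the constitutive form, at 2349 CPM in CD4-Cre and 2295 CPM in F/F cDC1. Thus 2 of 10 were at least 1.5-fold lower, against 5.58% of all genes with at least 20 UMIs. The chaperone list also had members at least 1.5-fold lower in macrophages (2), T cells (2) and plasma cells (3). In B cells 5 were at least 1.5-fold higher and none lower. The part of handling in the chaperone values was not tested. In oxidative phosphorylation 18 of 22 genes were lower by any amount, against 46.6% of all genes with at least 20 UMIs. None of the 22 was past 1.5-fold, and their median log2 ratio was -0.27. Ndufs6, a subunit of complex I, was the lowest at 94.5 CPM in CD4-Cre and 137 CPM in F/F cDC1, a ratio of 0.689 (0.606 to 0.783). The same list was at -0.31 in T cells, -0.31 in plasma cells, -0.11 in macrophages and -0.13 in B cells. Glycolysis and hypoxia genes had a median of 0.05, with 2 of 16 measured at least 1.5-fold lower (Slc2a1 and Bnip3), against 5.58% of all genes. The 24 ribosomal protein genes had none past 1.5-fold.

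Among the remaining named genes, Gadd45b, Blvrb, Maz, Arl4c, Rab10os, Sclt1, P2ry12 and Csrp2 had ratios from 1.67 to 1.80, each from 96 or more UMIs in CD4-Cre cDC1. After thinning to 2000 UMIs a cell, Blvrb lay on the other side of 1, at 0.436, and Sclt1 stood at 1.05. Of the 12 higher genes, 11 lay above 1 in other kept cells, where 69.1% of the 6477 genes did, and of the 12 lower genes 8 lay below 1 there, where 30.9% did. Rhob, a small GTPase, stood at 20.9 CPM in CD4-Cre and 51.4 CPM in F/F cDC1, a ratio of 0.406 (0.316 to 0.520). Its share of cells was 23.3% in the CD4-Cre and 41.2% in the F/F library, so the excess in F/F was spread over many cells. The linker histones Hist1h1e and Hist1h1d and the core histone Hist1h2ac had ratios of 0.404, 0.455 and 0.4502. Hist1h1e had a UMI in 19.4% of CD4-Cre and 31.2% of F/F cDC1, Hist1h1d in 6.67% of CD4-Cre and 19.6% of F/F cDC1, and Hist1h2ac in 8.18% of CD4-Cre and 20% of F/F cDC1. Thinned, these 3 histone genes had ratios of 0.623, 0.655 and 0.727. Btg3, Gm42031 and Gm50333 had ratios of 0.435, 0.270 and 0.447. Serpina3g, at 52.1 CPM in CD4-Cre and 109 CPM in F/F cDC1, had a ratio of 0.476 (0.405 to 0.559), and of 0.703 without the 5 cells of each library with most Cxcl9. Kcnq5, a potassium channel gene, had a ratio of 0.303 (0.190 to 0.470), and of 1.15 without the 5 cells highest for it.

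The cDC1 differed among themselves by their gate receptors. Both Xcr1 and Clec9a were seen in 298 CD4-Cre and 220 F/F cells, Clec9a alone in 28 CD4-Cre and 18 F/F cells, and Xcr1 alone in 4 CD4-Cre and 2 F/F cells. The cells with Clec9a alone were shallower, with medians of 8895.5 UMIs in the CD4-Cre and 9539 UMIs in the F/F library, against 14818.5 UMIs (CD4-Cre) and 16116.5 UMIs (F/F) in cells with both. They held Irf8 at 1115 CPM in the CD4-Cre and 1212 CPM in the F/F library, against 1322 CPM (CD4-Cre) and 1389 CPM (F/F) in cells with both. Itgae stood at 348 CPM (CD4-Cre) and 240 CPM (F/F) in cells with Clec9a alone, against 488 CPM (CD4-Cre) and 437 CPM (F/F) in cells with both. Fcer1g, a signalling chain of Fc receptors, was higher in them, at 207 CPM in the CD4-Cre and 189 CPM in the F/F library, against 10.1 CPM (CD4-Cre) and 11.1 CPM (F/F). So was Tcf4, a factor of plasmacytoid dendritic cells, at 239 CPM (CD4-Cre) and 252 CPM (F/F) against 64.5 CPM (CD4-Cre) and 61.0 CPM (F/F) in cells with both. The cells with at least 2 Siglech UMIs and the highest Apoe cell of each library, 4 CD4-Cre and 2 F/F cells in all, were among those with Clec9a alone. They held 44 of the 53 Fcer1g UMIs of the CD4-Cre and 18 of the 33 of the F/F cells with Clec9a alone, and 36 of 61 (CD4-Cre) and 36 of 44 (F/F) Tcf4 UMIs. Without them, a choice made after seeing the data, Fcer1g stood at 39.9 CPM in 24 CD4-Cre and 94.2 CPM in 16 F/F cells with Clec9a alone. Tcf4 then stood at 111 CPM (CD4-Cre) and 50.2 CPM (F/F), and so in the F/F library below its level in cells with both. Rarb, a retinoic acid receptor, was picked among the genes lowest in cells with Clec9a alone. It had no UMI in those 28 CD4-Cre and 18 F/F cells, against 20.5 CPM in CD4-Cre and 17.7 CPM in F/F cells with both. A gene without a UMI is still allowed up to 3 counts in each library. The cells with Clec9a alone were few and shallow, so whether their Rarb level was lower was not tested.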

How the data were processed

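Both samples were droplet libraries (10x Genomics 3′ kits), each holding sorted cells of 3 mice, with a target of 50000 read pairs per cell, per the labels. Values were whole UMI counts, deposited as unfiltered matrices and used as deposited. Per the submitters' processing notes, Cell Ranger 7.2.0 and Seurat 5.0.1 were used with mm10 (GRCm38), and no cell annotation was used here. Cells were barcodes with at least 1000 UMIs, 500 genes and at most 10% mitochondrial UMIs, and cDC1 were gated as described. No doublet caller was run. Gate limits and filters on markers of other lineages stood in for one.

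UMIs were summed over gated cells of each library and scaled to CPM over all genes. For ratios of CD4-Cre over F/F, 95% intervals treat the UMIs of a gene as split binomially between the libraries (exact limits). Shares carry Clopper-Pearson intervals, and a count of 0 allows up to 3 counts. UMIs gathered in 1 cell are treated as independent, so intervals of genes held by few cells are too narrow. List members needed 20 UMIs over both libraries, with 0.5 added to counts. Named genes had at least 100 UMIs, 20 CPM, a UMI in 5% of cells, a ratio past 1.5-fold with an interval not reaching 1, and free RNA (barcodes of 10 to 100 UMIs) under 4-fold different, and the 12 largest each way were followed, of which 1 higher gene is not reported here. Identity genes were the 20 with the largest ratio over other kept cells, with 20 CPM and a UMI in 20% of cDC1 in both libraries and the gate genes left out. Clec9a-only cells, Cxcl9-positive cells, cells highest for Cxcl9 or Apoe and list members given as examples were looked at after their values were seen. Thinning was to 2000 UMIs per cell. Positions come from GENCODE M21 and promoter windows from RefSeq, both on GRCm38, with 539 of 539 genes matched by identifier. The members and lists were chosen with earlier results of these data known. The ratio and its interval were tried on simulated pools in which every UMI was independent. That trial cannot show how the intervals behave for genes held by few cells. Python 3.11.15, numpy 2.4.6, scipy 1.17.1 and pandas 2.3.3 were used.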

Additional observations from a re-analysis of the deposited data

Results flagged for a closer look

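Cxcl9 had a ratio of CD4-Cre over F/F of 0.373 (0.337 to 0.412) in cDC1 and of 2.06 (1.72 to 2.47) in macrophages, so the libraries differed in opposite directions in these cell types. With 1 pool per genotype this difference was not tested. How Cxcl9 UMIs were spread over single macrophages is not given here, so the macrophage interval may be too narrow as well. In cDC1 the 5 cells with most Cxcl9 held 43.0% of its CD4-Cre UMIs and 56.1% of its F/F UMIs.

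Cells outside the gate also carried its receptors. Ccr7 was seen beside at least 2 UMIs of Xcr1 and Clec9a in 17 CD4-Cre and 6 F/F cells, above the 3 cells that a count of 0 allows. Fscn1, a marker of migratory dendritic cells, was seen in 6 of the CD4-Cre cells and 1 of the F/F cells. Their Irf8 level was 434 CPM in the CD4-Cre and 617 CPM in the F/F library, against 1309 CPM (CD4-Cre) and 1375 CPM (F/F) inside the gate.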

How the results depend on the processing

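No paired analysis was possible because each genotype had 1 library. The ratio of cDC1 shares lay between 1.37 and 1.61 under other gates and filters, and at 1.01 over kept cells with under 15% immunoglobulin UMIs. The number of genes past 1.5-fold was 169, with 59 after thinning to 2000 UMIs, 1078 at 20 or more UMIs per gene, 28 at 300 or more UMIs and 25 at a 2-fold limit. Gramd1a stood at 5.45 (1.27 to 49.2) after thinning, from few UMIs, and between 1.35 and 1.62 otherwise. The cycling ratio lay between 0.877 and 1.21 under all alternatives. Among the named higher and lower genes 3 changed direction. Blvrb went to 0.436 after thinning, Mylip to 0.944 without cells with 2 UMIs of other lineages, and Kcnq5 to 1.15 without the 5 cells highest for it. Gramd1b and Xcr1, whose main intervals held 1, also crossed 1, in 3 and 2 alternatives, and reached 1.58 and 1.28. Cxcl9 stayed between 0.348 and 0.484 and Ier3 between 2.36 and 4.13. The medians of the interferon (-0.62 to -0.04), immediate early (-0.25 to -0.18) and oxidative phosphorylation (-0.30 to -0.23) lists kept their sign. Settings based on Xcr1 alone, Siglech and the cells with most Cxcl9 were chosen after seeing the data. Scaling by the median of ratios gave 67 genes at least 1.5-fold higher and 98 lower, against 83 and 86. Genes seen in few cells are limited by 330 and 240 cells and by 1 pool per genotype.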
